A study of Homo sapiens with 14 samples.

Results

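The epidermal differentiation complex is the stretch of chromosome 1 that holds the genes of terminal differentiation of squamous epithelium. Here it was taken as the gene names on chromosome 1 that belong to the S100A, SPRR and LCE families, together with IVL, FLG, FLG2, LORICRIN, CRNN, RPTN, HRNR, TCHH and TCHHL1. The rule gave 56 of the 59471 gene names in the count files, namely 17 S100 proteins, 32 cornified envelope precursors and 7 fused-type S100 proteins, lying between positions 151982915 and 153632039 of GRCh38. Their RNA was measured by RNA-seq of polyA RNA in 14 libraries of SCC23, an established head and neck squamous cell carcinoma (HNSCC) line. KMT2D-WT cells had received Cas9, GFP and a guide to LacZ, and lines KO1 and KO2, here called KMT2D-KO, had received the same plasmid with a guide to KMT2D, an enzyme that places H3K4me1 at enhancers. Cells were sorted for GFP and no cloning of single cells is described. Each line was kept in high glucose (+Glc) or deprived of glucose for 6 h (-Glc), in 2 experiments, which gave 3 KMT2D-WT and 4 KMT2D-KO libraries in each condition.

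S100 proteins are small calcium-binding proteins that act inside the cell by binding partners such as annexins, and some are also secreted. Involucrin (IVL), loricrin, the small proline-rich proteins (SPRR) and the late cornified envelope proteins (LCE) are the precursors that transglutaminases cross-link beneath the membrane of a differentiating keratinocyte. Fused-type S100 proteins such as filaggrin (FLG), trichohyalin (TCHH) and hornerin (HRNR) carry an S100 domain ahead of long repeats and bind keratin filaments or the envelope. Basal and dividing keratinocytes hold S100A2 and S100A6, while most precursors appear in the upper layers.

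Total counts were 15669154 to 62968057 per library, and the 56 genes took 0.117% to 0.408% of them. The 4 libraries of experiment 2 with glucose were counted with both mates of a read pair, so their totals count many fragments more than once. KMT2D RNA checked the labels only in part. With glucose it was at 279, 266 and 271 CPM (counts relative to library size, scaled by TMM) in KMT2D-WT cells, at 182 and 184 CPM in KO1 and at 323 and 373 CPM in KO2, and without glucose it was at 231 to 239 CPM in KMT2D-WT cells and at 19.9 to 190 CPM in KMT2D-KO cells. The guides can break the protein without lowering the RNA, so this level is no measure of the protein. Without glucose, the library labelled KO1 of experiment 2 went against its label. KRT5, a keratin of basal cells, was at 15.4 CPM in the KO1 library of experiment 1 but at 180 CPM in that library, beside 225 and 185 CPM in the KO2 libraries. With glucose KRT5 was at 8.79 and 1.5 CPM in KO1 and at 166 and 82.9 CPM in KO2. The counts of this library and of the KO2 library of the same experiment differed by a chi-square of 1.78 per degree of freedom over genes, and those of the 2 KMT2D-WT libraries of that experiment by 1.71, where all other pairs of a group gave 25.9 or more. Sampling noise alone gives 1, and these 2 pairs were far nearer to it than the others. They were still entered as separate libraries. Tests that use them count each close pair as 2 replicates, which can make p-values too small. The calls of members without glucose, with those of the other lists as counts, are therefore also given with each of these close pairs summed. Keratinocyte markers were present, with the summed level of 12 squamous genes with glucose at 3829 to 4305 CPM in KMT2D-WT and 2661 to 3099.6 CPM in KMT2D-KO cells, and without glucose at 3341 to 3959 and 3650.5 to 5254 CPM, although KRT6A reached no more than 1.13 CPM. The 8 myeloid markers summed to at most 1.98 CPM, with PTPRC at 0 in all but 1 library. The 6 fibroblast markers summed to 5.76 to 7.09 CPM in KMT2D-WT cells with glucose and to 12.5 to 26.7 CPM in KMT2D-KO cells, and without glucose to 3.26 to 5.58 and 7.37 to 14.04 CPM. With glucose 3 of the 3 tested were called higher in KMT2D-KO cells, beside 13% of all genes. Without glucose the 1 tested, COL1A1, was called higher, beside 25.7% of all genes. It was still called with the close pairs summed (log2 fold change 1.32, edgeR adjusted p = 0.0265). The part of the fibroblast markers in the results was not tested.

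Few of the 56 genes were expressed. No count was found for 27 of them in any library, another 18 had counts but a mean below 1 CPM, and 11 had a mean of at least 1 CPM. Those 11 were 10 S100 genes and TCHH, and they lay at the ends of the complex. S100A10, S100A11 and TCHH stood at one end, and S100A6, S100A4, S100A3, S100A2, S100A16, S100A14, S100A13 and S100A1 at the other. The 43 genes between TCHH and S100A6, spread over 1419 kb, had 503 counts in all 14 libraries together, whereas S100A2 alone had 368047. Of the 18 LCE genes 15 had no count and no LCE gene had more than 3, and LORICRIN, RPTN, CRNN, S100A7 and S100A12 were at 0 in every library. At the level of a count of 0 these genes were not detectable at this depth. FLG had 15 counts over the 14 libraries, spread over both genotypes.

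**Figure D1:**
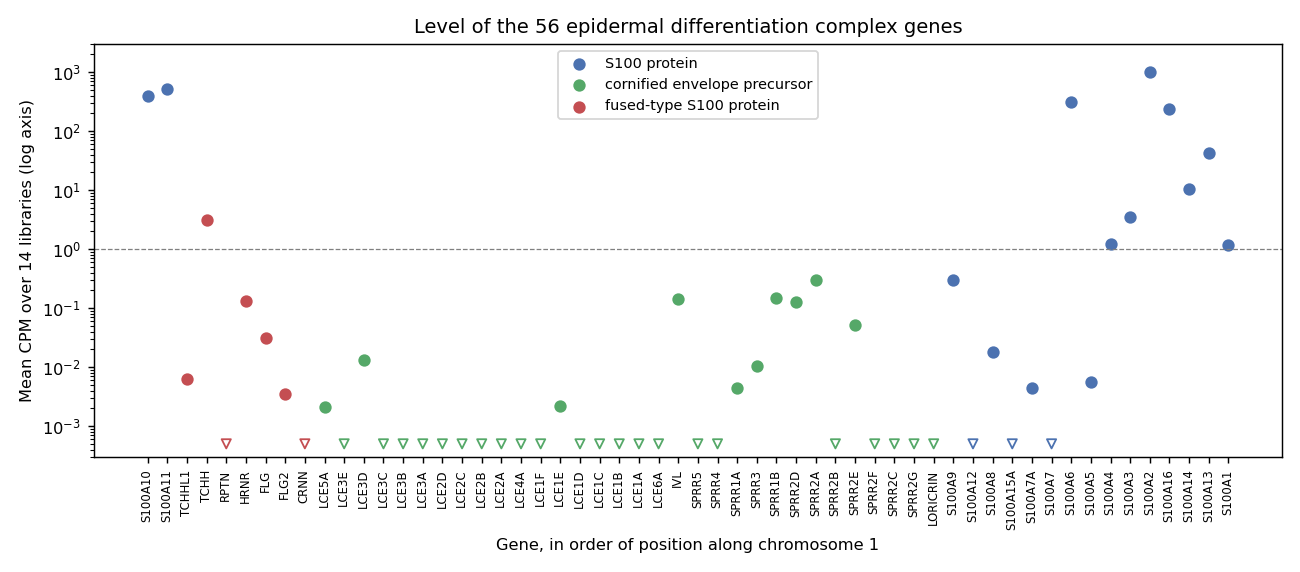
Mean CPM over the 14 libraries (log axis) of the 56 genes in order of position along chromosome 1, coloured by role, with open triangles for genes without a count in any library and a dashed line at 1 CPM. The 11 genes above the line lie at the ends, and the 43 genes between TCHH and S100A6 lie below it.

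Per kilobase of exon, the S100 genes of KMT2D-WT cells with glucose spanned 3 orders of level. The mean over 3 libraries was 606 CPM per kb for S100A11, 559 for S100A2, 369 for S100A6, 277 for S100A10 and 103 for S100A16. S100A13 followed at 15.3 CPM per kb, S100A3 at 5.68, S100A14 at 3.05, S100A4 at 1.64, S100A1 at 0.448 and TCHH at 0.189. The ranges of the libraries overlapped between neighbours from S100A11 down to S100A10 and from S100A13 down to S100A4, with experiments pooled. Within each of the 3 libraries the order held except for S100A11 and S100A2. S100A2 was above S100A11 in experiment 1, at 990 against 863 CPM per kb, and below it in experiment 2, at 326 and 360 against 470 and 484. Levels of these short genes depended on the experiment. S100A13 with glucose was at 74.1 CPM in the KMT2D-WT library of experiment 1 and at 14 and 13.6 CPM in those of experiment 2. Experiment was therefore a covariate in each test of genotype and of line, and values are compared within an experiment below.

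KMT2D-KO cells kept in glucose had less S100A6 and S100A3, somewhat less S100A2 and S100A13, and more TCHH than KMT2D-WT cells, and SPRR2A had counts in KMT2D-KO libraries alone. Of the 56 genes 14 passed the filter on low counts and were tested, 2 were higher and 4 lower at an adjusted p under 0.05 (edgeR quasi-likelihood test, Benjamini-Hochberg over all genes tested). SPRR2A, which is among the 2, had no KMT2D-WT count and passed the filter only through the KMT2D-KO libraries, so its call is given as part of the count and supports nothing. Of all genes tested in this comparison 24.7% were called, 13% higher and 11.7% lower. The members' median log2 fold change was 0.21, beside 0.022 over all genes. Nothing in the labels says that libraries of an experiment came from separate cultures, so p-values measure the spread between these libraries. In such bulk RNA, fewer cells with a transcript and less of it per cell cannot be told apart.

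S100A6 (calcyclin), which binds CACYBP and annexins, was at 663 CPM in the KMT2D-WT library of experiment 1 and at 207 and 290 CPM in KO1 and KO2. In experiment 2 it was at 211 and 203 CPM in KMT2D-WT cells and at 62.5 and 80.3 CPM in KO1 and KO2. The groups did not overlap within either experiment, and across experiments they did. S100A6 was lower in KMT2D-KO cells by a log2 fold change of -1.48 (SE 0.13, adjusted p = 9.56e-05), that is at 0.358 of the KMT2D-WT level. Within experiment 1, which holds 1 KMT2D-WT library assumed to vary like the KMT2D-KO libraries, the change was -1.42 (adjusted p = 0.0408), and within experiment 2 it was -1.55 (adjusted p = 0.00315). Without experiment as a block the change was -1.15 and the call was lost (adjusted p = 0.407).

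S100A3, which lies next to S100A4 in the same cluster and is known as a cysteine-rich protein of the hair cuticle, moved with S100A6. It was at 7.63 CPM in KMT2D-WT cells against 2.03 and 3.44 CPM in KO1 and KO2 in experiment 1. In experiment 2 it was at 2.86 and 3.85 CPM in KMT2D-WT cells and at 1.11 and 1.22 CPM in the KO lines. Again no KMT2D-KO library reached a KMT2D-WT library of its experiment, and the log2 fold change was -1.49 (SE 0.24, adjusted p = 0.00173). The call was lost without the block (-1.29, adjusted p = 0.217) and in experiment 1 alone (-1.47, adjusted p = 0.165), and it held in experiment 2 alone (adjusted p = 0.0202).

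S100A2, a gene of basal keratinocytes and a target of p63, fell by 0.43 on the log2 scale with glucose (SE 0.10, adjusted p = 0.0119). Its levels were 1530.3 CPM in KMT2D-WT cells and 1214 and 1247 CPM in KO1 and KO2 of experiment 1, then 557 and 504 CPM against 332 and 414 CPM in experiment 2. S100A13, which takes part in the release of FGF1, fell by 0.51 (SE 0.09, adjusted p = 0.00318), from 74.1 CPM to 55.1 and 50.5 CPM in experiment 1 and from 14 and 13.6 CPM to 9.76 and 9.35 CPM in experiment 2. These differences were smaller than those of S100A6 but had the same direction in both experiments. S100A2 lost its call without the KMT2D-WT library numbered 2 (-0.36), and neither S100A2 nor S100A13 was called without the block (-0.094 and -0.11) or within a single experiment. The exons of S100A13 share 33.5% of their bases with S100A1, on the opposite strand, and with another gene. Counting ignored strand, so reads there cannot be told apart.

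**Figure D2:**
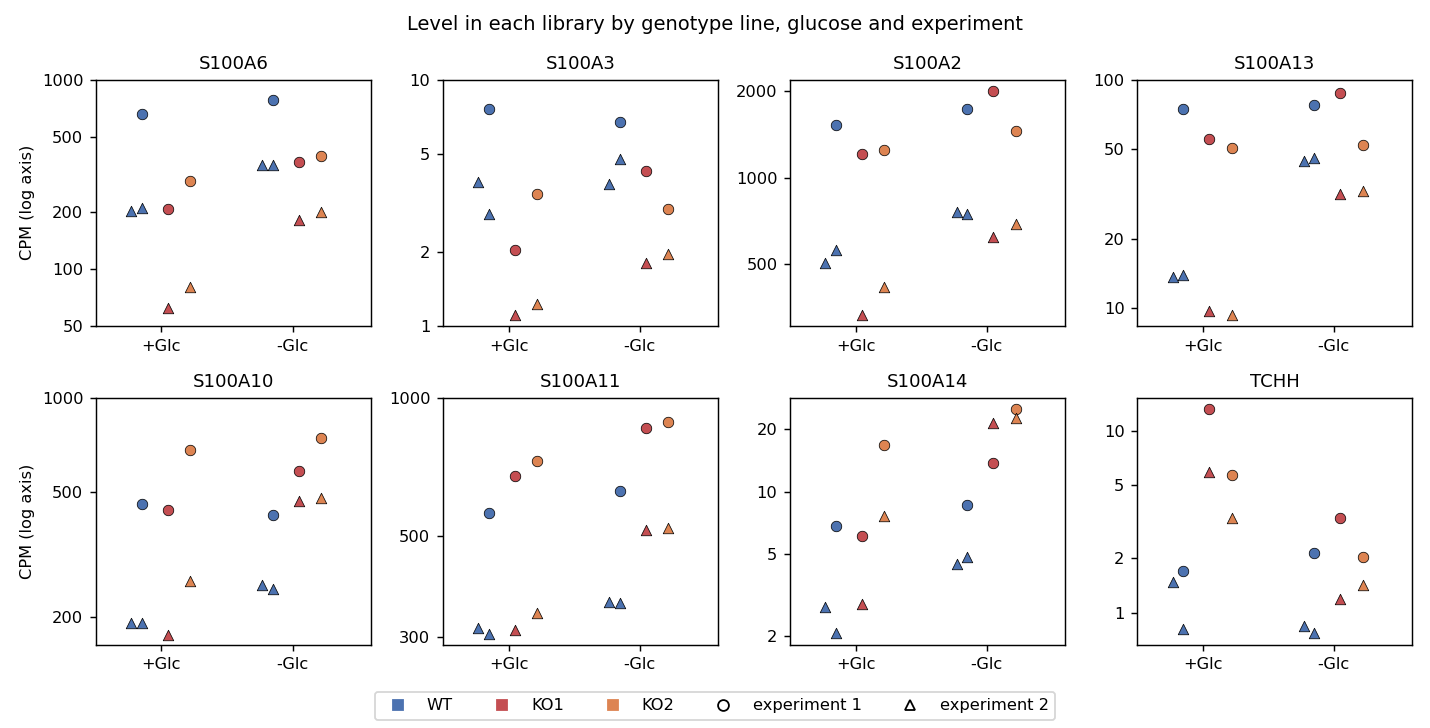
CPM (log axis) of 8 genes in each of the 14 libraries, by glucose condition, with colour for the line and symbol for the experiment. Within each experiment S100A6 and S100A3 of KMT2D-KO cells lie below KMT2D-WT cells in both conditions, and TCHH of KMT2D-KO cells lies above with glucose.

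TCHH was the fused-type gene with the highest level and rose with glucose. It was at 1.69 CPM in the KMT2D-WT library of experiment 1 and at 13.1 and 5.71 CPM in KO1 and KO2. In experiment 2 it was at 0.814 and 1.47 CPM in KMT2D-WT cells and at 5.96 and 3.31 CPM in KO1 and KO2. All 4 KMT2D-KO libraries were above all 3 KMT2D-WT libraries, with a log2 fold change of 2.19 (SE 0.38, adjusted p = 0.00357), or 4.57-fold. In experiment 1 alone TCHH was not called (2.47, adjusted p = 0.118). HRNR, the other fused-type gene tested, had 0 to 24 counts per library with glucose and did not pass (-0.42, SE 0.69, adjusted p = 0.708).

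The remaining S100 genes tested with glucose did not pass. S100A10, the partner of annexin A2, gave a log2 fold change of 0.23 (SE 0.18, adjusted p = 0.406) and S100A11 one of 0.18 (SE 0.09, adjusted p = 0.187). S100A14 gave 0.98 (SE 0.43, adjusted p = 0.148), with values that overlapped in experiment 1, and it was called without the KO1 library of experiment 1 (1.18), with no filter on low counts and by DESeq2 with experiment (0.98). S100A16 gave 0.25, S100A1 0.36, S100A4 -0.74 and S100A9 1.72, with adjusted p of 0.376, 0.321, 0.160 and 0.0993.

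**Figure D3:**
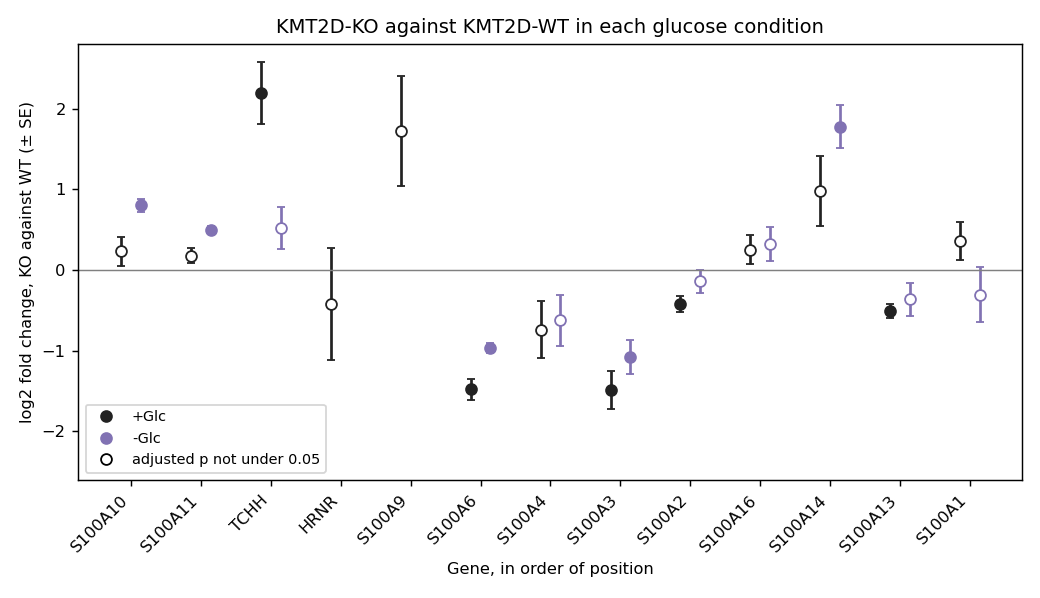
Log2 fold change of KMT2D-KO against KMT2D-WT (± SE of the edgeR fit) for the members tested in at least 1 condition, with glucose in black and without in purple, filled where the adjusted p was under 0.05. S100A6 and S100A3 are filled below 0 in both conditions, and SPRR2A, with no KMT2D-WT count, has no fitted value.

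Without glucose, S100A6 and S100A3 were again lower in KMT2D-KO cells, and S100A10, S100A11 and S100A14 were higher. Of 12 members tested 4 were higher, SPRR2A again among them through its KMT2D-KO counts alone, and 2 were lower, in a comparison where 50.5% of all genes tested were called, 25.7% higher and 24.8% lower. The members' median log2 fold change was 0.091 beside 0.0029 over all genes. With glucose 0 of the 11 squamous markers tested were higher and 3 lower, beside 13% and 11.7% of all genes. Without glucose 7 of the 12 were higher and 1 lower. With the close pairs summed 1 was higher and 1 lower, where 1458 genes were higher and 1206 lower of all 16867 tested. The part of these markers in the results was not tested. S100A6 was at 779 CPM in the KMT2D-WT library of experiment 1 and at 366 and 394 CPM in KO1 and KO2, and in experiment 2 at 354 and 354 CPM against 182.5 and 199.5 CPM. The groups stood apart in each experiment, with a log2 fold change of -0.97 (SE 0.06, adjusted p = 6.58e-05) and of -0.97 with the close pairs summed (adjusted p = 0.0193). S100A3 gave -1.08 (SE 0.21, adjusted p = 0.00506), from 3.77 to 6.76 CPM in KMT2D-WT cells to 1.80 to 4.26 CPM in KMT2D-KO cells. With the close pairs summed it was no longer called (-1.02, adjusted p = 0.0846).

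S100A10, which together with annexin A2 forms a complex at the membrane, was at 422 CPM in the KMT2D-WT library of experiment 1 and at 586 and 745 CPM in KO1 and KO2. In experiment 2 it was at 245 and 252 CPM in KMT2D-WT cells and at 468 and 479 CPM in the libraries labelled KO1 and KO2. All 4 KMT2D-KO libraries were above all 3 KMT2D-WT libraries, by a log2 fold change of 0.80 (SE 0.09, adjusted p = 0.000444). S100A11, its neighbour and a substrate of the cornified envelope, rose by 0.49 (SE 0.05, adjusted p = 0.000435), from 626 CPM to 860 and 887 CPM in experiment 1 and from 357 and 359 CPM to 515 and 519 CPM in experiment 2. S100A14, a gene of epithelial cells, was at 8.61 CPM against 13.7 and 24.9 CPM in experiment 1 and at 4.83 and 4.48 CPM against 21.4 and 22.6 CPM in experiment 2. Its log2 fold change was 1.78 (SE 0.27, adjusted p = 0.00195), or 3.43-fold. With the close pairs summed S100A10 and S100A11 were still called (adjusted p of 0.0341 and 0.0437) and S100A14 was not (1.62, adjusted p = 0.0511). S100A10 and S100A14 were higher in KO2 than in KO1 with glucose, and the library labelled KO1 of experiment 2 resembled KO2. The part of the lines in these calls was not tested. No member was called in experiment 1 alone, where edgeR called no gene of the whole table and 2132 genes had an unadjusted p under 0.05. Without the KO1 library of experiment 1, S100A2 (-0.25), S100A4 (-0.86), S100A13 (-0.55) and S100A16 (0.13) were called as well, which made 10 calls. In that fit most genes were called, 6132 higher and 6309 lower of 16739 tested, so the 10 calls are not particular to the members.

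The other members tested without glucose did not pass. TCHH, at 2.13 CPM in KMT2D-WT cells of experiment 1 against 3.32 and 2.02 CPM and at 0.770 and 0.846 CPM against 1.19 and 1.42 CPM in experiment 2, gave 0.52 (SE 0.26, adjusted p = 0.142). S100A2 gave -0.14 and S100A13 -0.36, with adjusted p of 0.434 and 0.181, and S100A4, S100A16 and S100A1 gave -0.63, 0.32 and -0.31. Library size alone as scaling, which moved the median of all genes from 0.0029 to -0.25 and the calls from 4319 higher and 4158 lower to 2711 higher and 6256 lower, changed no sign among the tested members and added calls below 0 for S100A2, S100A4 and S100A13.

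Counts of IVL, SPRR1B, SPRR2A, SPRR2D and SPRR2E were found in KMT2D-KO libraries and in no KMT2D-WT library. These 5 genes had no count in the 6 KMT2D-WT libraries and a count in at least 7 of the 8 KMT2D-KO libraries, a pattern held by 0.161% of the 39032 genes with a count. The limit of 7 was set after the values were seen, and the share is a description. With a count asked in at least 1 KMT2D-KO library, 12 members and 9.68% of the genes had the pattern. IVL had 2 and 2 counts in KO1 and KO2 of experiment 1 with glucose and 11 and 14 in experiment 2, then 8 and 6 without glucose in experiment 1 and 5 and 8 in experiment 2. SPRR2A, the member of the group with most counts, had 7 and 5, then 20 and 32 with glucose, and 13 and 15, then 13 and 11 without. SPRR1B had 0 and 4, then 2 and 14 with glucose, and 14 and 8, then 5 and 2 without. The levels remained low, with at most 0.878 CPM for any of the 5 genes in any library.

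Pooled KMT2D-KO levels were set against a floor of 3 counts over the KMT2D-WT libraries. The counts of the 4 libraries counted by mates were halved. SPRR2A was 11.1-fold above that floor with glucose and 18.5-fold above it without. The same ratios were 4.83-fold and 9.62-fold for IVL, 3.51-fold and 10.3-fold for SPRR1B and 3.80-fold and 8.19-fold for SPRR2D. For SPRR2E they were 1.61-fold and 3.21-fold, from 9 KMT2D-KO counts in each condition. The floor covers counting error of the KMT2D-WT libraries only. Error of the few KMT2D-KO counts is not covered, so these ratios are not lower bounds. No test is given for these genes, since they were picked for this pattern after their counts were seen. With no filter on low counts 10 members were called with glucose and 12 without, these genes among them except SPRR2E, where 16.7% (8.47% higher) and 29.4% (14.3% higher) of all genes were called, and nothing is read from it. SPRR2 genes are near-identical copies, so how reads divided between them is uncertain.

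**Figure D4:**
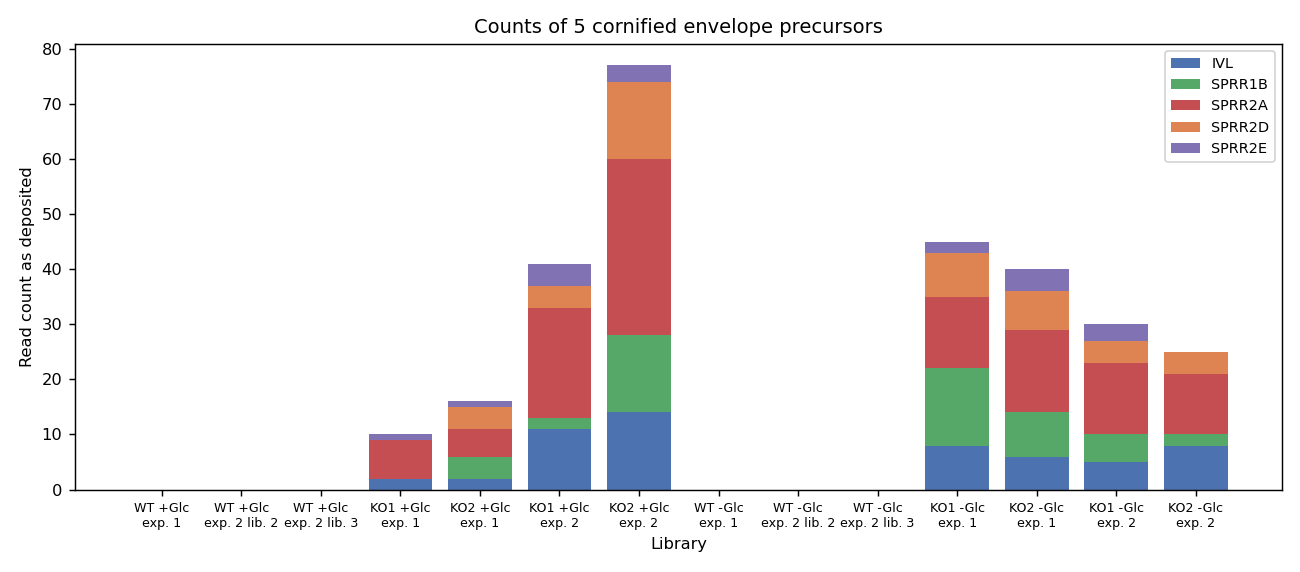
Deposited read counts of IVL, SPRR1B, SPRR2A, SPRR2D and SPRR2E stacked for each of the 14 libraries. The 6 KMT2D-WT libraries are at 0, and the 8 KMT2D-KO libraries hold 10 to 77 counts, where the libraries of experiment 2 with glucose count both mates.

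Promoters are shown for the 3 precursors with counts in KMT2D-KO libraries alone that have a window (SPRR2D and SPRR2E have none), for TCHH, and for S100A6, the member with the lowest adjusted p in both conditions. RefSeq windows on GRCh38.p14, from 250 bases before to 50 after a gene's start, matched 51 of the 56 genes. They were searched for the AP-1 letters TGANTCA, which read the same on both strands, and for the KLF and Sp letters CACCC on both strands. TGANTCA was in a window of 18 of the 51 members (35.3%) and of 9.37% of the 27305 genes of the table, and CACCC in 40 (78.4%) against 63.1%. TGANTCA was in 6 of 9 SPRR genes, 6 of 7 fused-type genes, 4 of 16 S100 genes and 0 of 17 LCE genes. Of the 11 expressed members 3 held it, TCHH, which was higher with glucose, and S100A2 and S100A3, which were lower. S100A10, S100A11 and S100A14, higher without glucose, held none, and neither did S100A6 and S100A13. A match is a description of letters and not a site. The 250 bases before the start follow, 5′ to 3′ on the gene's strand, with TGANTCA matches in capitals, at chr1:152908296-152908545 (plus strand), chr1:153030953-153031202 (plus), chr1:153057513-153057762 (minus), chr1:152115445-152115694 (minus) and chr1:153535992-153536241 (minus).
IVL: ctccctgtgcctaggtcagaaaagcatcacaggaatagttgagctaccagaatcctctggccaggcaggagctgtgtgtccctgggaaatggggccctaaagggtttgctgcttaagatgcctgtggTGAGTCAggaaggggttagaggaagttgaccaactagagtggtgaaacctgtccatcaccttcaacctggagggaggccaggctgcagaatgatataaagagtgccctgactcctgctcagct
SPRR1B: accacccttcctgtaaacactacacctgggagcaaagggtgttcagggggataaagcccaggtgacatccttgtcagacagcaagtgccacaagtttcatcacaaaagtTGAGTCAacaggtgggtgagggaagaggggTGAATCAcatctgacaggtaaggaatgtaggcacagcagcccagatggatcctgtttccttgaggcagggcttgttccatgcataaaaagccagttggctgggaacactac
SPRR2A: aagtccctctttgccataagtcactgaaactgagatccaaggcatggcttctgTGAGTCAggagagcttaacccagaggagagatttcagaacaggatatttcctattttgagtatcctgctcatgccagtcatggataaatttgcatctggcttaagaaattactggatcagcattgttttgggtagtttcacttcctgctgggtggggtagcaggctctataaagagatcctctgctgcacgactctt
TCHH: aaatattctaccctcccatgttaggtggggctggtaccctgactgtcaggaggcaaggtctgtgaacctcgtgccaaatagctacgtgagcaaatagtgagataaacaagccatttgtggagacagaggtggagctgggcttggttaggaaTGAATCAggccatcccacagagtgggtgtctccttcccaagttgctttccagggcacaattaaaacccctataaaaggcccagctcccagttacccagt
S100A6: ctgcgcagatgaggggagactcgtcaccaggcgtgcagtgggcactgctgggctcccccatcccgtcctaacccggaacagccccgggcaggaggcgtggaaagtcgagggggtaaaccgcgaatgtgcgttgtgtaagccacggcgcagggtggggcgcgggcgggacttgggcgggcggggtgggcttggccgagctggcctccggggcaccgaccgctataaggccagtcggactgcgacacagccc
The match of IVL began 123 bases before the start and that of SPRR2A 197 bases before it. SPRR1B held 2 matches, beginning 141 and 111 bases before the start, TCHH held 1 at 99 bases and S100A6 held none, while its window held CACCC on either strand 2 times.

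The KMT2D-KO effect was compared between conditions in 1 fit of all 14 libraries, in which 13 members were tested and 11.3% of all genes were called, 4.80% higher and 6.52% lower. TCHH was called, with a difference of the log2 fold changes (without minus with glucose) of -1.66 (SE 0.50, adjusted p = 0.0495). The call was lost in 10 of the 14 fits that each left out 1 library, with experiment as 1 term (-1.60, adjusted p = 0.0724) and with RLE scaling (-1.62, adjusted p = 0.0516). S100A6 gave 0.54 (SE 0.16, adjusted p = 0.0512) and S100A11 0.34 (SE 0.10, adjusted p = 0.0541). S100A10, S100A14 and S100A2, which passed the test in 1 condition each, gave 0.59, 0.83 and 0.31 with adjusted p of 0.106, 0.381 and 0.245, so a difference between conditions was not shown for them. This fit counts the close pairs without glucose as separate replicates and was not run with them summed. With the label in doubt, KO1 and KO2 may make up different parts of the KMT2D-KO group in each condition. TCHH, S100A6, S100A10 and S100A14 differed between these lines with glucose. For them a difference between conditions and one of lines cannot be told apart.

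Deprivation of glucose was tested in experiment 1, where all libraries were single-end, over the 3 pairs of libraries of KMT2D-WT, KO1 and KO2. None of the 11 members tested was called by edgeR and 1.67% of all genes were (0.523% higher and 1.15% lower). An unadjusted p under 0.05 was found for 4 members and for 3174 of all 16066 genes tested. S100A6 was at 663, 207 and 290 CPM with glucose and at 779, 366 and 394 CPM without (log2 fold change 0.48, SE 0.16, adjusted p = 0.134). S100A14 gave 0.66 (adjusted p = 0.147), TCHH -1.13 (adjusted p = 0.190) and S100A1 -1.53 (adjusted p = 0.130). Without the pair of KMT2D-WT libraries TCHH (-1.79) and S100A1 (-2.05) were called. In that fit more genes were called over the whole table as well, 386 higher and 1065 lower of 15946 tested. In experiment 2 alone 10 members were called, among them S100A13 at 1.73 and S100A6 at 1.10. There 4896 genes were higher and 4480 lower of 18843 tested, and glucose and the counting of mates cannot be told apart.

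The lines KO1 and KO2 differed in some of these genes with glucose. In 1 fit of 3 levels, 16 members were tested, 2 were higher and 3 lower in KO1 than in KO2, and 15.3% of all genes were called, 7.56% higher and 7.70% lower. S100A14 was at 6.08 and 2.87 CPM in KO1 and at 16.8 and 7.62 CPM in KO2, a log2 fold change of -1.44 (SE 0.20, adjusted p = 1.96e-05). S100A10 was lower in KO1 by -0.62 (SE 0.08, adjusted p = 4.90e-06), at 437 and 175 CPM against 684 and 260 CPM. S100A6 was also lower in KO1, by -0.44 (SE 0.08, adjusted p = 0.000438). S100A16 was higher in KO1 at 355 and 200 CPM against 246 and 123 CPM, by 0.60 (SE 0.08, adjusted p = 1.63e-05), and TCHH was higher by 1.00 (SE 0.24, adjusted p = 0.00510). The call of TCHH was lost without any of 3 libraries, KO1 or KO2 of experiment 1 (0.80 and 0.98) or KO2 of experiment 2 (1.04), and that of S100A6 without KO2 of experiment 1 (-0.34).

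Against KMT2D-WT cells in the same fit, S100A6 was lower in KO1 (-1.72, SE 0.08) and in KO2 (-1.28, SE 0.08), and S100A3 likewise (-1.73 and -1.29), each with an adjusted p of 0.000181 or less. KO1 was called for 7 members and KO2 for 11, in comparisons that called 32.4% and 35.0% of all genes. S100A14 was near 0 in KO1 (0.085, SE 0.19, adjusted p = 0.802) and higher in KO2 (1.53, SE 0.18, adjusted p = 2.89e-07). S100A10 was called in KO2 (0.51, adjusted p = 3.79e-06) but not in KO1 (-0.11, adjusted p = 0.278), and S100A16 in KO1 (0.52, adjusted p = 8.11e-06) but not in KO2 (-0.086, adjusted p = 0.435). These comparisons share the KMT2D-WT libraries. KRT5 and other keratinocyte markers also differed between the lines, with a log2 fold change of -4.98 for KRT5 and -1.58 for KRT17 in KO1 against KO2, and their part in these results was not tested. No comparison of lines was made without glucose, because of the label in doubt.

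**Figure D5:**
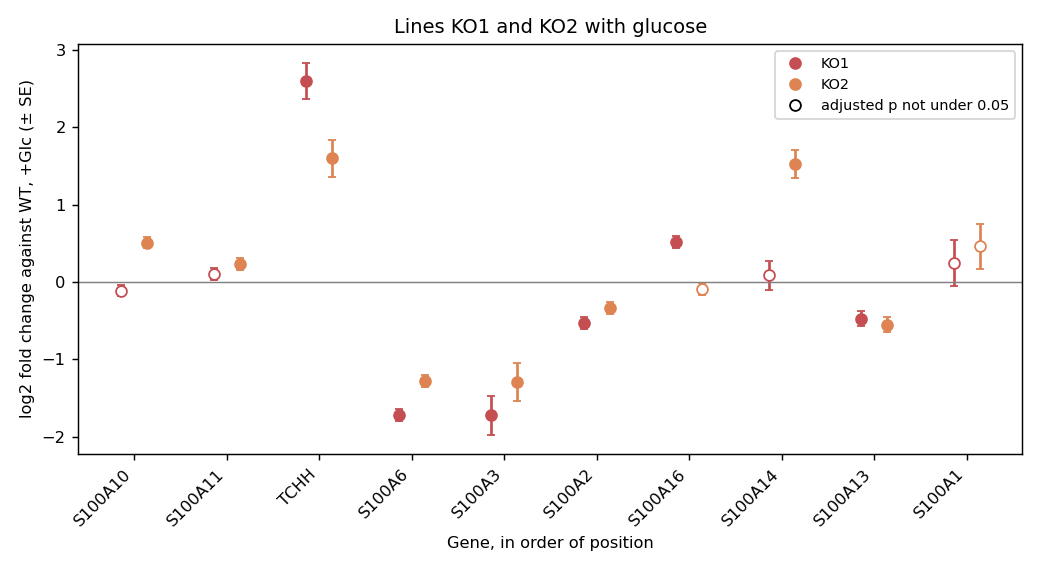
Log2 fold change against KMT2D-WT with glucose (± SE) of line KO1 (red) and line KO2 (orange), filled where the adjusted p was under 0.05. S100A6, S100A3, S100A2 and S100A13 lie below 0 in both lines and TCHH above, while S100A10, S100A16 and S100A14 differ between the lines.

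Genes of the cornified envelope outside the complex moved in both directions. Of 40 listed, 19 were tested in each condition, 5 were higher and 5 lower in KMT2D-KO cells with glucose, and 9 were higher and 5 lower without, where 25.7% and 24.8% of all genes were called in these directions (13% and 11.7% with glucose). With the close pairs summed 3 were higher and 2 lower, where 1458 genes were higher and 1206 lower of all 16867 tested. The list had medians of 0.084 with glucose and 0.50 without. With glucose the largest changes were of DSG1, a desmosomal cadherin with no KMT2D-WT count, EMP1 (1.67), periplakin PPL (-1.39), ECM1 (-1.11) and cystatin A CSTA (1.04). Without glucose they were SERPINB13 (4.48), sciellin SCEL (2.82), elafin PI3 (2.52), TGM1 (-2.25) and EMP1 (1.90). In KMT2D-WT libraries without glucose SERPINB13 was at 0 to 0.0592 CPM, SCEL at 0.136 to 0.176 CPM and PI3 at 0.148 to 0.227 CPM. These 3 passed the filter only through the KMT2D-KO libraries, so their fold changes support nothing. With the close pairs summed they were not called (adjusted p of 0.0680, 0.0585 and 0.0557), while TGM1 and EMP1 were. TGM1, the transglutaminase that cross-links the precursors, was at 1.04 to 2.40 CPM in KMT2D-WT cells without glucose. In KMT2D-KO cells, where alone IVL and the SPRR genes had counts, it was at 0.251 to 0.505 CPM. TGM1 thus passed the filter only through the KMT2D-WT libraries, so its call and fold change support nothing.

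Among 19 transcription factors of squamous differentiation, 17 were tested with glucose (1 higher, 5 lower, median -0.19) and 16 without (6 higher, 3 lower, median 0.090, and 4 higher and 2 lower with the close pairs summed). Over all genes tested 13% were higher and 11.7% lower with glucose, and 25.7% and 24.8% without. With the close pairs summed 1458 genes were higher and 1206 lower of 16867. The medians over all genes were 0.022 and 0.0029. KLF4, a factor of the upper layers, was at 5.61 to 9.66 CPM in KMT2D-WT cells and at 23.1 to 29.3 CPM in KMT2D-KO cells with glucose (1.78, SE 0.17, adjusted p = 9.92e-05). Without glucose it was at 13.4 to 14.3 CPM and 110 to 191 CPM (3.60, SE 0.19, adjusted p = 4.73e-05). SOX2 fell by 3.25 with glucose and by 5.83 without. It was at 1.01 to 1.35 CPM in KMT2D-WT and 0 to 0.274 CPM in KMT2D-KO libraries with glucose. Without glucose it was at 1.41 to 2.01 CPM and 0 to 0.0475 CPM. SOX2 thus passed the filter only through the KMT2D-WT libraries, and the size of its fold change rests on KMT2D-KO counts near 0. With glucose ZNF750 (-1.40), GRHL1 (-1.15) and NOTCH1 (-0.69) were also lower, and GRHL1 was lower without (-1.34), but not called with the close pairs summed (-1.32, adjusted p = 0.0554). GRHL3 (1.77) and ELF3 (1.58) rose without glucose and were still called with the close pairs summed. TP63, the master factor of basal keratinocytes, was higher without glucose (0.70, SE 0.22, adjusted p = 0.0375), but not with the close pairs summed (0.64, adjusted p = 0.232).

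Of the 12 partners of S100 proteins and S100 genes elsewhere, 8 were tested. With glucose CACYBP, the partner of S100A6, was higher (0.40) and AHNAK, a large protein bound by S100A10 and annexin A2, was lower (-0.56). Without glucose S100P (2.78), CACYBP (0.79), ANXA11 (0.69) and BSG (0.58) were higher and AHNAK was lower (-1.47), of which S100P, ANXA11 and BSG were still called with the close pairs summed. S100P was at 0.0296 to 0.141 CPM in KMT2D-WT libraries without glucose and passed the filter only through the KMT2D-KO libraries. The median of the list was 0.028 with glucose and 0.48 without, beside 0.022 and 0.0029 over all genes. Over all genes tested 24.7% were called with glucose and 50.5% without. Of the 34 other gene names within the limits of the complex, 3 were tested with glucose and 4 without. CRCT1, which encodes a cysteine-rich protein, was the 1 called, lower without glucose, and it passed the filter only through the KMT2D-WT libraries. With the close pairs summed 0 of the 4 tested were called, CRCT1 among them (adjusted p = 0.0600). CRCT1 thus supports nothing. It had 17, 21 and 17 counts in KMT2D-WT libraries and 0 in the 4 KMT2D-KO libraries, and with glucose 11, 42 and 6 counts against 0, 3, 2 and 0.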

How the data were processed

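RNA-seq libraries of SCC23 cells, 14 in all, were grouped by the labels into KMT2D-WT and KMT2D-KO, with and without glucose. Per the file headers and the study's methods, the authors mapped reads to GRCh38 with HISAT2 and deposited raw counts per gene name from featureCounts 2.0.3 on Ensembl 102, without strand. The methods name uniquely mapped reads and the headers primary alignments, so whether reads with several alignments were counted is not settled. Reads of near-identical or overlapping genes can therefore fall on either gene. The 4 libraries of experiment 2 with glucose were counted by mates.

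Differences were computed in edgeR 4.0.16 (R 4.3.3), keeping genes by filterByExpr at 10 counts or more, scaling by TMM and fitting robustly, with experiment as covariate. Calls had a Benjamini-Hochberg p under 0.05 over all genes tested. The study's methods name DESeq2 without a covariate, which was an alternative (DESeq2 1.42.0). Experiment differences correlated over genes between genotypes (0.90 with glucose, 0.73 without), so experiment served as the replicate block. Glucose was tested within experiment 1 with line as covariate. The scripts were tested on simulated data, where the comparison of lines gave more false calls than its nominal share. Members and lists were chosen with earlier results of these data known. Each member that passed the filter was named, of other lists the called genes with the 5 largest changes, and TGM1, KRT5, KRT14, KRT13 and TP63 always could be; KRT6A and PTPRC were added as defining markers. Alternatives were other scalings, filters and tools, each library left out, single experiments and lines, halved counts of the libraries counted by mates, summed SPRR2 genes, summed close pairs and, added after the data were seen, an offset for gene length. Depths were 15669154 to 62968057 counts, and floors cover counting error of the KMT2D-WT libraries only. Promoter windows came from RefSeq on GRCh38.p14.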

Additional observations from a re-analysis of the deposited data

Results flagged for a closer look

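The KMT2D-KO effect on TCHH differed between the glucose conditions by a test of the difference itself, with -1.66 on the log2 scale (without minus with glucose, edgeR adjusted p = 0.0495). The call was lost in 10 of the 14 fits that left out 1 library, with experiment as 1 term (adjusted p = 0.0724) and with RLE scaling (adjusted p = 0.0516). TCHH was at 3.31 to 13.1 CPM in KMT2D-KO libraries with glucose and at 1.19 to 3.32 CPM without, against 0.814 to 1.69 CPM and 0.770 to 2.13 CPM in KMT2D-WT libraries. In experiment 2 the conditions also differ in the counting of mates, which the fit absorbs as a term per experiment and condition. The fit counts the close pairs without glucose as separate replicates and was not run with them summed. TCHH was higher in KO1 than in KO2 with glucose, and a library labelled KO1 without glucose resembled KO2. A difference between conditions and one of lines therefore cannot be told apart for TCHH. Of 28 sets of 4 KMT2D-KO libraries of the tested members, 0 were flagged by Dixon's gap test, where chance gives about 1 in 20. The 4 libraries come from 2 experiments whose levels differ, which widens the range and leaves the test little power.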

How the results depend on the processing

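Without experiment as a replicate block, members called fell from 6 to 2 with glucose, from 6 to 3 without and from 5 to 0 between lines, and for the difference between conditions from 1 to 0 with experiment as 1 term. DESeq2 without experiment called 2 and 3, experiment 1 alone 1 and 0, and experiment 2 alone 10 without glucose. In that last fit 6385 genes were higher and 6490 lower of 17304 tested. With no filter on low counts 10 and 12 were called, line KO2 against KMT2D-WT called 11, and for the difference between conditions RLE scaling called 2 (S100A6 and S100A11, with TCHH lost) and a minimum count of 30 called 2 (TCHH and S100A11). Glucose deprivation called 9 members over all 14 libraries and 10 in experiment 2. Over the whole table these fits called 3890 higher and 3388 lower of 16456 genes, and 4896 and 4480 of 18843. Leaving out 1 library gave 5 to 7 calls with glucose, 5 to 10 without (10 without KO1 of experiment 1), 3 to 5 between lines (3 without KO2 of experiment 1), 0 to 4 for the difference (4 without KO2 with glucose or KO1 without glucose, both of experiment 1) and 0 to 2 for glucose (2 without the KMT2D-WT pair). For the difference, the fit without KO2 with glucose of experiment 1 called 826 genes higher and 1185 lower of 18781. That without KO1 without glucose called 2171 and 2096 of 18767, RLE scaling 1154 and 1118 of 18678, and a minimum count of 30 929 and 1257 of 15039. Glucose without the KMT2D-WT pair called 386 and 1065 of 15946. DESeq2 without experiment called 1388 and 1184 of 20421 with glucose and 2547 and 2274 of 16765 without. The causes were not tested. Over the whole table, calls without the block were 490 higher and 483 lower with glucose (2662 and 2389 with it), 1637 and 1898 without glucose (4319 and 4158) and 8 and 4 between lines (1652 and 1683). With close pairs summed they were 1458 and 1206, and in experiment 1 alone with glucose 129 and 162.

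Changes of sign were limited to genes not called in the test itself, S100A10 in line KO1 (-0.11) and S100A16 in line KO2 (-0.086) with glucose, HRNR in experiment 2 (0.096), S100A2 without glucose and without the block (0.15) or by DESeq2 without experiment (0.21), S100A1 in experiment 2 without glucose (0.19), S100A13 for the difference with experiment as 1 term (-0.12), and S100A4 for glucose over all libraries (0.089) or in experiment 2 (0.25). With 1 library left out the signs of HRNR (-0.97 to 0.094 with glucose, -4.58 to 4.86 between lines), S100A1 (-0.56 to 0.17 without glucose), S100A9 (-0.93 to 1.03), SPRR2A (-0.82 to 0.78) and S100A4 (-0.83 to 0.21) between lines, S100A4 (-0.21 to 0.42) and S100A16 (-0.076 to 0.29) for the difference, and S100A10 (-0.018 to 0.23), S100A4 (-0.48 to 0.029) and S100A3 (-0.21 to 0.39) for glucose changed. The signs of the calls for S100A6 and S100A3 against KMT2D-WT held in each alternative run.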
